A study of Mus musculus with 6 samples.

Results

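The 10 genes described here encode feedback inhibitors of the RAS-ERK pathway: the MAP kinase phosphatases Dusp1, Dusp2, Dusp4, Dusp5 and Dusp6, the Sprouty proteins Spry1, Spry2 and Spry4, and the Sprouty-related proteins Spred1 and Spred2. They were taken as a named list, and every probe set annotated to exactly 1 of these symbols was used. This gave 25 probe sets of the 45101 on the array, and 10 of the 13222 genes tested. The list was chosen by gene function with the log2 values of these arrays and their Sox2cKO minus CTRL differences already known, so the differences of its members are given as descriptions and carry no test.

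The data are 6 Affymetrix whole-genome expression arrays, each hybridised with RNA of epithelial cells sorted from chemically induced, benign papillomas of mouse skin. In the 3 Sox2cKO samples (K14CREER:SOX2fl/fl), a tamoxifen-inducible Cre driven from the keratin 14 promoter, which is active in basal keratinocytes, deletes the floxed Sox2 gene. The 3 CTRL samples came from mice called only control mice, whose alleles are not stated in the labels. Mice of both groups had received tamoxifen for 1 week, and age and the number of animals per sample are not stated either. Tumours were digested with collagenase for 2 h, and living cells positive for Epcam and alpha6 integrin and negative for CD45, CD31 and CD140a were collected.

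Growth factor receptors activate RAS, which acts through the kinases RAF, MEK and ERK, and ERK changes the transcription of target genes. Among those targets are genes whose products switch the pathway off again. Dual-specificity phosphatases remove the activating phosphates from ERK and its relatives. Sprouty proteins act between receptor and RAF, and Spred proteins bring the RAS inhibitor neurofibromin to the membrane. Transcript levels of such genes are widely read as a sign of ERK output, and in the mouse skin carcinogenesis model papillomas commonly carry an activating mutation in a Ras gene. The mutation status of these tumours was not analysed here.

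The 250 bases before the annotated start were available for 8 of the 10 genes (RefSeq, GRCm38.p6), and Dusp4 and Spry4 were not matched. The 4 phosphatase genes with any of the searched motifs are shown; the other 4 matched genes had none of these letters. Capitals mark the motif matches, and positions are counted back from -1 at the base before the start. The regions are chr17:26508473-26508722 (minus strand) for Dusp1, chr2:127335909-127336158 (plus strand) for Dusp2, chr19:53528895-53529144 (plus strand) for Dusp5 and chr10:99262981-99263230 (plus strand) for Dusp6.
Dusp1: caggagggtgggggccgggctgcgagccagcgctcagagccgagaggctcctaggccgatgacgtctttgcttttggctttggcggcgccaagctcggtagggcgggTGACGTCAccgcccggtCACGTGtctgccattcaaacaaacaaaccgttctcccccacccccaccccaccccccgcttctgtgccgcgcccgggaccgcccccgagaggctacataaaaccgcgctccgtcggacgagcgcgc
Dusp2: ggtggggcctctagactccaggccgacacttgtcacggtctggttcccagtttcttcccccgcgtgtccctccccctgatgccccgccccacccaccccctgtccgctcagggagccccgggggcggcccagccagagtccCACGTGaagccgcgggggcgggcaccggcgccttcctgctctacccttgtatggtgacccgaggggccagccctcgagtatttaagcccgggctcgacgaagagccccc
Dusp5: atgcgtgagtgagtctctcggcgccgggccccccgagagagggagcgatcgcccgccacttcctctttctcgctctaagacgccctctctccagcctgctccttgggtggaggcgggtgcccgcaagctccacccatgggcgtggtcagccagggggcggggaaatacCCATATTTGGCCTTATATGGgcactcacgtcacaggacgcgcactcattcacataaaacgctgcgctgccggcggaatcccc
Dusp6: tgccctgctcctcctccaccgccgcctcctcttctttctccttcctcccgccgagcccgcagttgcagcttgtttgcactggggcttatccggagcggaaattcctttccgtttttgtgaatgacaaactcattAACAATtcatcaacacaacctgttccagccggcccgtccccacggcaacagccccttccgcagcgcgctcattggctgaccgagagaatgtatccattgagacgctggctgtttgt

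Both strands were searched for 6 motifs. The cyclic AMP response element TGACGTCA lay at -143 to -136 in Dusp1 and is present in 1.62% of 27025 promoters of the same length. The E-box CACGTG lay at -126 to -121 in Dusp1 and at -109 to -104 in Dusp2, and 6.05% of promoters hold it. The CArG box, the element bound by serum response factor, was found in Dusp5 at -82 to -73 and again at -72 to -63, against 1.4% of promoters with at least 1. The SOX core ATTGTT was found in Dusp6 on the reverse strand at -116 to -111 and is present in 9.65% of promoters. The AP-1 site TGACTCA (4.43% of promoters) and the ETS site CCGGAAG (7.05%) had no match in the 8 windows. Apart from the CArG box, each motif was searched as 1 exact run of letters. Variants of these sites, including other ETS sequences, were not searched for and may be present. No match overlapped another. These are matches of letters and show no binding.

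Several measurements of the arrays touch the values below. Sox2 read 4.07, 4.63 and 3.23 in Sox2cKO and 7.19, 8.31 and 8.18 in CTRL, a log2 difference of -3.92 with an adjusted p of 0.316 in limma and an exact two-sided permutation p of 0.1, the smallest that 3 arrays against 3 allow. The position of its probe set relative to the floxed stretch was not analysed here. Epithelial markers were high in all arrays, with Krt14 at 14.10 ± 0.05 in Sox2cKO and 14.04 ± 0.10 in CTRL (mean ± SD, n = 3 each, as for all such values). Of the 8 epithelial markers, Krt15, a keratin of basal and follicle cells, had groups apart and was lower in Sox2cKO (difference -0.56), and the sort marker Epcam differed by -0.46 with overlapping groups. The arrays differed in sex: Xist, expressed from the inactive X chromosome of females, read 6.08 to 7.54 in the Sox2cKO arrays and CTRL replicate 1, and 12.03 and 11.85 in CTRL replicates 2 and 3. All 12 fibroblast and pericyte markers passed the intensity filter, and their mean level was 8.29 to 9.49 in Sox2cKO and 7.20 to 7.99 in CTRL, highest in Sox2cKO replicate 3. The sort selected cells negative for CD140a, whose gene Pdgfra read 6.32 ± 0.89 in Sox2cKO and 5.30 ± 0.24 in CTRL. The part of any of these array differences in the results was not tested. In sorted bulk cells, more cells of a type and more RNA per cell cannot be told apart.

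Of the 10 feedback genes only Dusp2 had groups that did not overlap, and it was higher in Sox2cKO cells. The other 9 overlapped, and in 7 genes the mean difference was smaller than the pooled SD within groups. Such separation in either direction was seen in 5.85% of all genes tested, with Sox2cKO higher in 2.73% and lower in 3.12%. With limma, 0 of the 10 genes had an adjusted p under 0.05, as did 0 of all 13222 genes (0%), of which 354 had an unadjusted p under 0.05. There were 5 members with higher and 5 with lower means in Sox2cKO, and their median log2 difference was 0.02, against 0.0027 for all genes tested. The median size of the difference regardless of sign was 0.07 for the members and 0.10 for all genes. Values are on a log2 scale throughout, and differences are Sox2cKO minus CTRL.

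**Figure D1:**
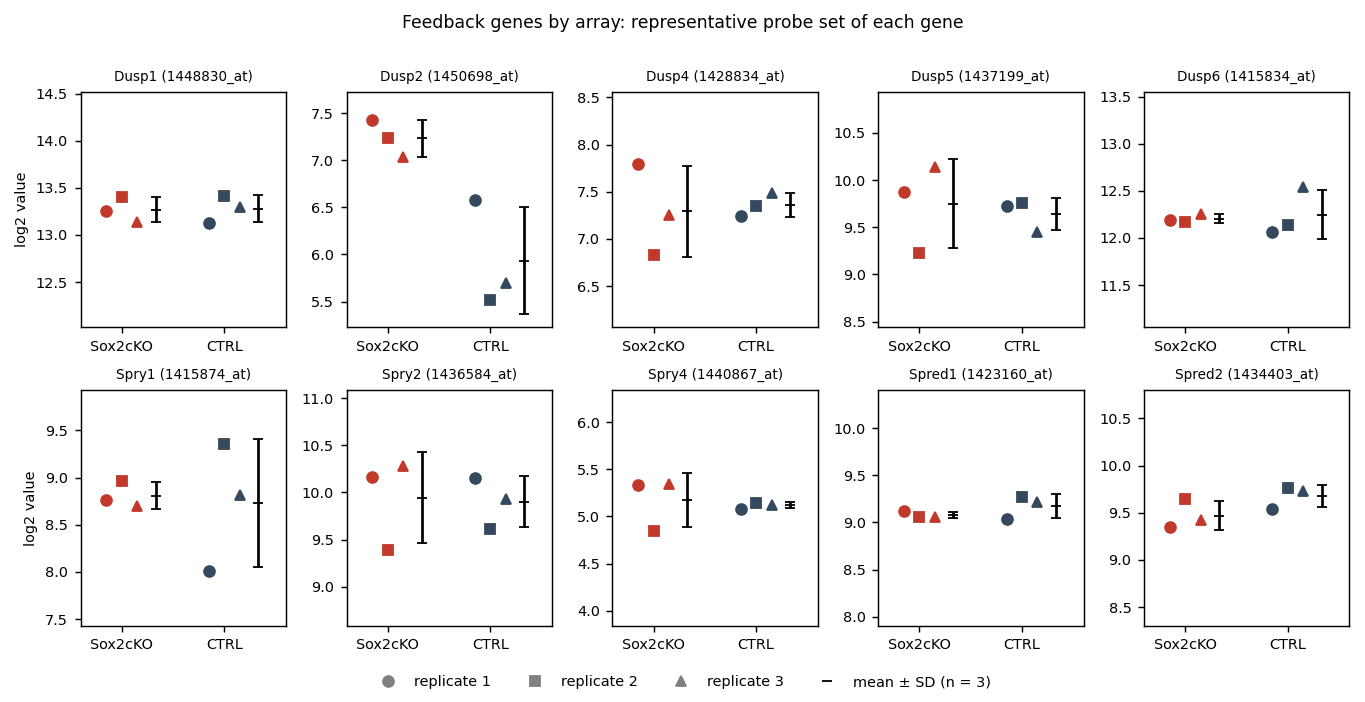
Log2 value of the representative probe set of each feedback gene (y axis, 2.5 log2 units in every panel) in the 3 Sox2cKO and 3 CTRL arrays, with the replicate number as the symbol and mean ± SD (n = 3) as the bar. Only in Dusp2 do all Sox2cKO arrays (7.04 to 7.43) lie above all CTRL arrays (5.52 to 6.58).

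Dusp1 encodes a nuclear phosphatase of p38, JNK and ERK and is an immediate early gene, induced within minutes by growth factors and stress. It read 13.26, 13.40 and 13.14 in Sox2cKO and 13.13, 13.41 and 13.30 in CTRL. The groups covered the same range, with means of 13.27 ± 0.13 in Sox2cKO and 13.28 ± 0.14 in CTRL and a difference of -0.01 (standard error 0.13). Array maxima were 14.29 to 14.44, so the signal lay near the top of the scale. Whether differences were compressed at this level was not tested.

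Dusp2 encodes a nuclear, inducible ERK phosphatase best known from activated immune cells. It read 7.43, 7.23 and 7.04 in Sox2cKO and 6.58, 5.52 and 5.70 in CTRL. All 3 Sox2cKO arrays were above all 3 CTRL arrays, and CTRL replicate 1 lay between its group and the Sox2cKO arrays. The means were 7.23 ± 0.20 in Sox2cKO and 5.93 ± 0.57 in CTRL, a difference of 1.30 (standard error 0.28), or 2.46-fold. The gene has 1 probe set on the array (1450698_at), so a second reading was not had.

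The size of the Dusp2 difference depended on the controls it was set against. Within arrays of the same replicate number it was 0.85, 1.71 and 1.34 for numbers 1, 2 and 3. With a covariate for the Xist-high arrays, which leaves CTRL replicate 1 as the only matched control, it was 0.65, and with any single array left out it lay between 1.09 and 1.62. Sex and genotype can therefore be told apart only through that array.

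Markers of immune cells were examined beside Dusp2. Of 8 T cell markers 3 failed the intensity filter, and their mean level was 5.01 to 5.12 in Sox2cKO and 4.96 to 5.06 in CTRL. Ptprc, which encodes CD45, read 5.10 ± 0.48 in Sox2cKO and 5.00 ± 0.27 in CTRL, and Cd3e, a T cell receptor subunit, read 5.88 ± 0.16 in Sox2cKO and 5.89 ± 0.05 in CTRL. The 12 myeloid and Langerhans cell markers averaged 5.84 to 6.22 in Sox2cKO and 6.05 to 6.15 in CTRL. The mean levels of both lists overlapped between groups, but 2 of the 11 tested myeloid and Langerhans cell markers had groups apart and were lower in Sox2cKO. They are H2-Ab1, which encodes a chain of MHC class II (7.87 ± 0.62 in Sox2cKO and 9.13 ± 0.16 in CTRL, a difference of -1.26) and the invariant chain gene Cd74 (7.14 ± 0.55 in Sox2cKO and 8.23 ± 0.53 in CTRL, a difference of -1.09). Cd68 and Lyz2, markers of macrophages, each differed by 0.43 in the other direction with overlapping groups, and none of these 4 genes passed the adjusted threshold in limma. The mean level of the fibroblast markers was higher in Sox2cKO (8.29, 8.36 and 9.49) than in CTRL (7.98, 7.99 and 7.20). Within Sox2cKO it ran in the opposite order to Dusp2, which was highest in replicate 1 and lowest in replicate 3. Within CTRL the orders were neither the same nor opposite. There Dusp2 was highest in replicate 1 and lowest in replicate 2, and the fibroblast mean was highest in replicate 2 and lowest in replicate 3. Between groups, both were higher in Sox2cKO. In the fibroblast marker mean the groups were apart with or without Sox2cKO replicate 3. Without that array the Dusp2 difference was 1.40. The part of these cell types in the Dusp2 difference was not tested.

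Dusp4 encodes another nuclear phosphatase of ERK and JNK. It read 7.79, 6.83 and 7.26 in Sox2cKO and 7.24, 7.35 and 7.49 in CTRL. Sox2cKO arrays held both the highest and the lowest value of the 6, and the difference of -0.07 (standard error 0.24) was well inside that spread. Dusp5, a nuclear phosphatase specific for ERK, read 9.88, 9.23 and 10.14 in Sox2cKO and 9.72, 9.75 and 9.45 in CTRL. The extremes again lay in Sox2cKO, with an SD of 0.47 in Sox2cKO against 0.17 in CTRL, and the difference was 0.11 (standard error 0.24).

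Dusp6 encodes the cytoplasmic ERK phosphatase that is often used as a readout of ERK activity. It read 12.19, 12.16 and 12.26 in Sox2cKO and 12.06, 12.14 and 12.54 in CTRL. The Sox2cKO arrays lay close together (SD 0.05) and inside the range of CTRL, and the difference was -0.04 (standard error 0.15).

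Among the Sprouty genes, which encode inducible inhibitors of receptor tyrosine kinase signalling, Spry1 varied most in its representative probe set. It read 8.76, 8.97 and 8.70 in Sox2cKO and 8.01, 9.35 and 8.82 in CTRL. The controls spanned 1.35 and enclosed all Sox2cKO arrays, and the difference was 0.08 (standard error 0.31). It was 0.80 with the covariate for the Xist-high arrays and -0.28 without CTRL replicate 1, so that array decides its sign.

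Spry2 is covered by a pair of probe sets that passed the filter. The brighter (1436584_at) read 10.16, 9.39 and 10.28 in Sox2cKO and 10.15, 9.62 and 9.93 in CTRL, a difference of 0.05 (standard error 0.26). The dimmer (1421656_at) read 7.05, 5.82 and 6.70 in Sox2cKO and 7.35, 5.56 and 6.63 in CTRL, a difference of 0.01. In both probe sets the arrays numbered 2 of both groups were the lowest of the 6, by 0.63 and 1.24 below the mean of the other 4. The genotype difference was thus small beside the difference between replicate numbers.

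Spry4 was dim. Its brightest probe set (1440867_at) read 5.33, 4.84 and 5.34 in Sox2cKO and 5.08, 5.15 and 5.12 in CTRL, exceeded the filter level in 5 arrays and differed by 0.06 (standard error 0.16). The 3 other probe sets failed the filter and read 4.11 to 5.36 over all arrays. Their differences of 0.03 to 0.35 were positive, but at this signal level they say little about the transcript.

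The Spred genes encode adaptor proteins that inhibit RAS activation. Spred1 (1423160_at) read 9.12, 9.06 and 9.05 in Sox2cKO and 9.04, 9.27 and 9.22 in CTRL, a difference of -0.10 (standard error 0.12). Of its 8 probe sets 6 passed the filter, and those differed by -0.10 to 0.16, on both sides of 0. The mean difference slightly exceeded the pooled SD of 0.09, yet Sox2cKO replicate 1 was above CTRL replicate 1.

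Spred2 (1434403_at) read 9.34, 9.65 and 9.42 in Sox2cKO and 9.54, 9.76 and 9.73 in CTRL. It was the lowest member by difference, at -0.20 (standard error 0.13), and was lower in Sox2cKO within each of the 3 replicate numbers, with differences of -0.20, -0.11 and -0.31. The groups overlapped through Sox2cKO replicate 2. Its 5 probe sets all passed the filter and disagreed: 1441415_at (-0.49) and 1441802_at (-0.22) pointed the same way as the brightest, whereas 1436892_at (0.17) and 1423001_at (0.09) pointed the other way. None of the 5 had groups apart, and neither did any of the other probe sets except that of Dusp2, against 6.26% of the 23534 probe sets of 1 gene that were tested.

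**Figure D2:**
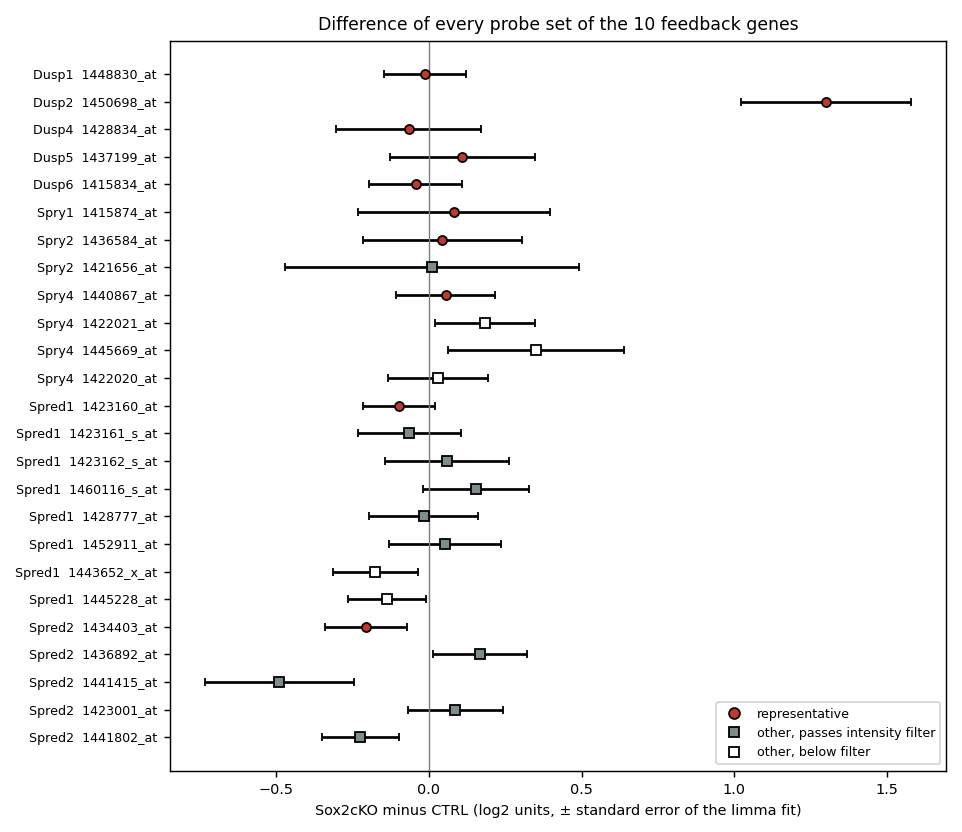
Sox2cKO minus CTRL difference (x axis, log2 units, ± standard error) of each of the 25 probe sets (rows), with representative probe sets in red, others that passed the intensity filter in grey and those below it in white. Standard errors are from the limma fit over genes for representatives and over all probe sets of 1 gene for the others. All but Dusp2 (1.30) lie between -0.49 and 0.35.

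In 4 of the 10 genes, Dusp4, Dusp5, Spry2 and Spry4, the lowest of the 6 arrays was Sox2cKO replicate 2, an array that was lowest for 18% of all genes tested. This grouping was chosen after the values were seen. The same array was lowest in 7 of the 13 other ERK-responsive genes and in 0 of the 10 genes of RAS activation. Of the 22 immediate early and dissociation-responsive genes, it was lowest in 1. In the remaining lists it was lowest in 1 of 8 ErbB genes, 1 of 7 kinase genes, 2 of 10 other negative regulators and 1 of 8 other phosphatases.

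Across all genes tested, deviations from group means were weakly correlated between arrays of the same replicate number (0.206 to 0.288). The arrays numbered 2 of both groups stood above the other 4 for Dusp1 and Spry1 and below them for Spry2. These are 3 of 10 genes, close to the 27.1% of all genes tested that showed either pattern (16.3% above and 10.8% below). Of 22 immediate early and dissociation-responsive genes, 11 had both arrays numbered 2 above the rest. Among them Egr1 read 12.57, 13.24 and 12.80 in Sox2cKO and 12.33, 13.22 and 12.77 in CTRL, and Jun, a subunit of AP-1, read 12.09, 13.07 and 12.23 in Sox2cKO and 12.32, 12.84 and 12.65 in CTRL. Of the 13 ERK-responsive genes, 5 had both these arrays below the rest. They included Ier3, at 13.16, 12.60 and 13.15 in Sox2cKO and 13.16, 12.59 and 13.05 in CTRL, and the AP-1 gene Fosl1, at 11.48, 10.39 and 11.05 in Sox2cKO and 11.28, 10.93 and 11.00 in CTRL. What the replicate number stands for is not stated in the labels.

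**Figure D3:**
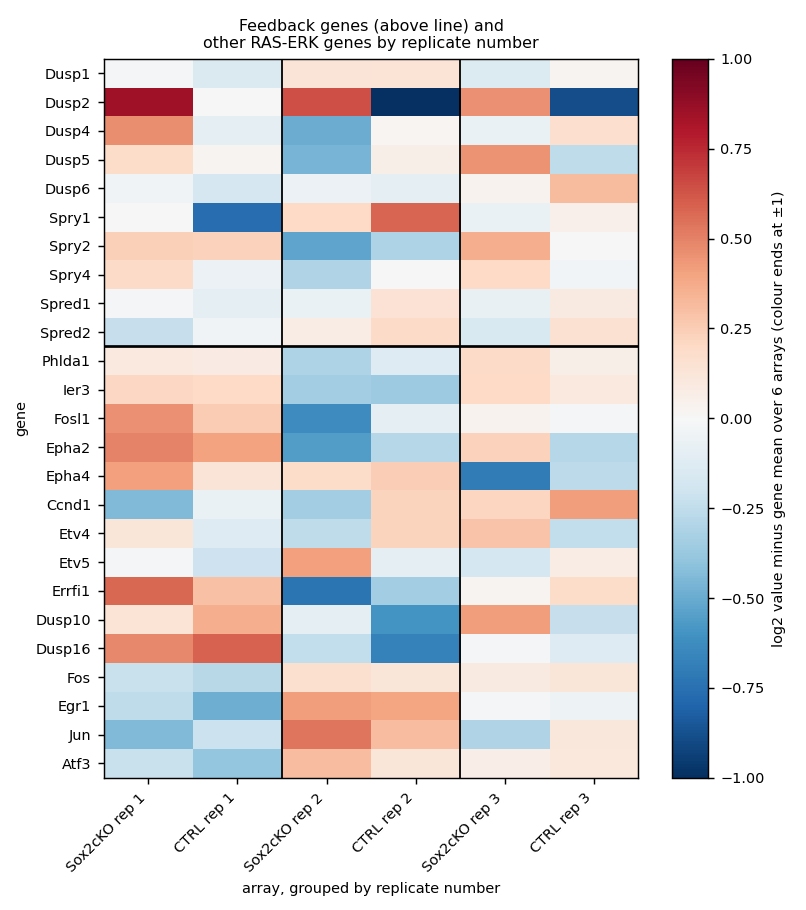
Log2 value minus the gene's mean over 6 arrays (colour, ending at ±1) for the 10 feedback genes and 15 other genes of the pathway lists (rows), with arrays as columns in pairs of equal replicate number, Sox2cKO left of CTRL. Spry2, Ier3, Fosl1 and Errfi1 are low and Egr1 and Jun are high in both arrays numbered 2. Fos is lowest in both arrays numbered 1, with little between numbers 2 and 3. Dusp2 is high in the 3 Sox2cKO arrays, near its mean in CTRL replicate 1 and low in CTRL replicates 2 and 3.

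Genes upstream and downstream in the pathway were examined as 7 lists of 78 tested genes other than the members. In limma, 0 of the 78 had an adjusted p under 0.05 (lowest 0.999), as did 0 of all 13222 genes. That count is therefore not particular to these lists. An unadjusted p under 0.05 in limma was seen in 0 of the 78, against 354 of the 13222. Means were higher in Sox2cKO for 44 and lower for 34, with a median difference of 0.02. Groups were apart in 2 genes (2.56%), against 5.85% of all genes tested. They were the receptor adaptor Grb2 (0.27) and the immediate early gene Ier5 (0.26), both higher in Sox2cKO. Both were named after their values were seen.

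At the receptor level, 8 ligand and receptor genes of the ErbB family had a median difference of -0.01. The EGF receptor gene Egfr read 9.00 ± 0.18 in Sox2cKO and 8.91 ± 0.10 in CTRL, and the ligand gene Hbegf read 12.64 ± 0.12 in Sox2cKO and 12.73 ± 0.13 in CTRL. The 10 genes of RAS activation had a median of 0.04, and the 7 kinase genes of the cascade had a median of 0.01. Map2k1, which encodes MEK, differed by 0.02 (9.89 ± 0.12 in Sox2cKO and 9.87 ± 0.13 in CTRL). The kinase list covered the narrowest range of the 7, from -0.07 to 0.11.

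The 13 other ERK-responsive genes had a median of -0.04, with 5 higher and 8 lower. The ETS factor genes Etv4 and Etv5, direct targets of the pathway in many tissues, differed by 0.10 (8.12 ± 0.28 in Sox2cKO and 8.02 ± 0.25 in CTRL) and 0.15 (8.68 ± 0.31 in Sox2cKO and 8.53 ± 0.14 in CTRL). Phlda1, a further common readout, read 12.81 ± 0.26 in Sox2cKO and 12.82 ± 0.12 in CTRL. Ccnd1, which encodes cyclin D1, read 11.54 ± 0.36 in Sox2cKO and 11.92 ± 0.24 in CTRL, a difference of -0.38 with overlapping groups. The 22 immediate early and dissociation-responsive genes had a median of 0.06. Fos read 13.76 ± 0.20 in Sox2cKO and 13.74 ± 0.23 in CTRL. Atf3 read 12.02 ± 0.26 in Sox2cKO and 11.92 ± 0.29 in CTRL.

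Relatives of the members had overlapping groups as well. Spry3 failed the intensity filter (3.87 ± 0.06 in Sox2cKO and 3.81 ± 0.10 in CTRL), and Spred3 was dim, at 5.10 ± 0.31 in Sox2cKO and 5.04 ± 0.17 in CTRL. Among 10 tested genes for other negative regulators, with a median of -0.03, Errfi1, an inhibitor of the EGF receptor, read 11.61 ± 0.66 in Sox2cKO and 11.70 ± 0.34 in CTRL. The transmembrane inhibitor Il17rd read 5.30 ± 0.35 in Sox2cKO and 5.11 ± 0.19 in CTRL. Of the 8 other dual-specificity phosphatases 5 were higher and 3 lower, with a median of 0.09. Dusp10 (7.48 ± 0.25 in Sox2cKO and 7.17 ± 0.48 in CTRL) and Dusp16 (8.67 ± 0.37 in Sox2cKO and 8.53 ± 0.63 in CTRL), which act on p38 and JNK, differed by 0.31 and 0.14, and Dusp7, an ERK phosphatase related to Dusp6, by -0.03.

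**Figure D4:**
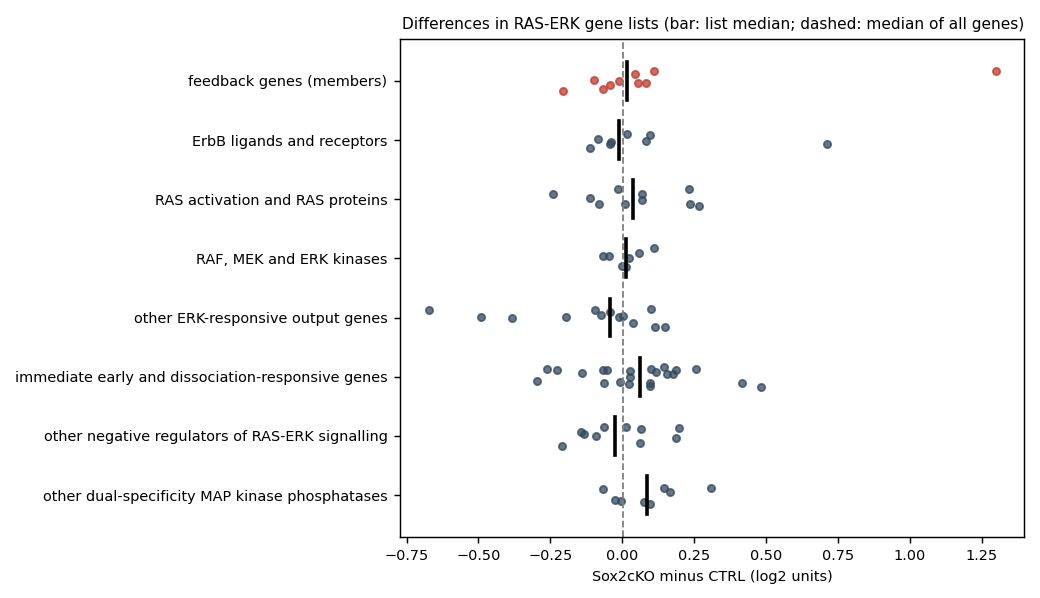
Sox2cKO minus CTRL difference (x axis, log2 units) of each gene in the feedback set and 7 other RAS-ERK gene lists (rows), 1 point per gene, with list medians as bars and the median of all genes as the dashed line. List medians lie between -0.04 and 0.09, and Dusp2 (1.30) is the point farthest from 0.

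For the members whose 6 values spanned at least 1 log2 unit, the 3 tested genes with the most similar pattern were listed by the root mean square difference of centred values over 6 arrays. For Dusp2 these were Dio2 (0.20), the protease gene Prss22 (0.24) and Ly6m (0.26). Dio2, which encodes the deiodinase that activates thyroid hormone, read 7.13, 7.26 and 6.71 in Sox2cKO and 6.62, 5.55 and 5.92 in CTRL. Prss22 read 9.99, 9.80 and 9.12 in Sox2cKO and 9.22, 8.11 and 7.78 in CTRL. Like Dusp2, both had CTRL replicate 1 as the highest of their controls. For Spry1 they were Shh (0.16), the ligand gene of the hedgehog pathway, Ckap4 (0.17) and Frmd6 (0.18). All had CTRL replicate 1 as their lowest and CTRL replicate 2 as their highest array. For both members such shared positions follow from the choice of genes by pattern and are no separate result.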

How the data were processed

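RNA of 3 Sox2cKO and 3 CTRL samples had been amplified from the 3' end and hybridised to 1-colour arrays, per the labels' protocols. The authors deposited log2 values, 1 per probe set and array. The log2 scale was read from their range, and R 2.14.0 is named per the submitters' processing notes. Background correction, summarisation and normalization are not given in the sources used here. Array medians were 5.42 to 5.46, so a shift shared by most genes would not be seen, and precision is limited by the number of arrays.

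Symbols of probe sets came from the platform annotation, and 10 of 10 member symbols matched RefSeq by Entrez identifier. A probe set was tested where its value was above the 40th percentile of the array (4.90 to 4.94) on at least 3 arrays, and 20 of the 25 member probe sets passed. Each gene was represented by its tested probe set of highest mean. Differences were fitted with limma 3.58.1 in R 4.3.3 (lmFit, eBayes), with Benjamini-Hochberg adjustment over 13222 genes and a threshold of 0.05. The procedure was tested on simulated data. Nothing in the labels says that samples came from separate animals beyond 3 biological experiments, so the spread between samples may be partly technical.

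The members, the gene lists, the tests and the alternatives were chosen with earlier results of these data known. Genes named in the text are all members, genes of the pathway lists named in advance, listed markers, and the genes most like a member. Grb2, Ier5, Epgn, Ereg, H2-Ab1, Cd74, Cd68, Lyz2, Krt15 and the array groupings were named after their values were seen. Some listed genes are not analysed here.

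Replicate numbers 1 to 3 occur in both groups. Deviations from group means correlated across genes by 0.206 to 0.288 between arrays of the same number, and by -0.333 to 0.064 between others. Deviations cancel within a group, so positive values between same-number arrays push the other values down. The contrast of these ranges is therefore partly fixed by the calculation. Every same-number pair exceeded 0.1, so differences within replicate numbers are also described, from the data and not from the labels. The main limma fit, behind the standard errors and limma p-values above, took no account of the pairs. The replicate block was run as an alternative.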

Additional observations from a re-analysis of the deposited data

How the results depend on the processing

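With the replicate block, 0 genes passed the threshold and the block changed no call. In this balanced design the block cannot change a group difference, so the median of the feedback genes is 0.02 by construction. Of 130 recomputed member differences, 124 moved by less than the spread within groups and 6 moved by more. The 124 include values that could not move. The replicate block and the limma fit with another variance prior (intensity trend, robust) cannot change a difference. Nor can the median of all probe sets for a gene with 1 probe set. Without the intensity filter every member kept its main value. Dusp2 stayed above 0 and Spred2 below 0 in all 13 alternatives, and the other 8 genes changed sign in at least 1. With the covariate for the Xist-high arrays, 1 gene passed, 8 of the 10 members were higher, and the median of the kinase list was -0.086. Without single arrays, 0 to 5 genes passed, the Sox2 difference was -4.27 to -3.54, and the member median was -0.11 to 0.084. The 5 genes and the Sox2 call (adjusted p 0.0425 in limma) came without CTRL replicate 1. Dusp2 was 0.65 with the covariate. The causes were not tested. The array level limits Spry4, which lay near the filter level.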

Other observations

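The list of ErbB ligands held the largest difference among the 78 other pathway genes. Epgn, which encodes the EGF-family ligand epigen, read 11.82, 10.93 and 11.29 in Sox2cKO and 11.10, 9.97 and 10.84 in CTRL, a log2 difference of 0.71 (standard error 0.33). It was higher in Sox2cKO within each of the 3 replicate numbers, by 0.72, 0.97 and 0.45, but its groups overlapped and its adjusted p in limma was 0.999. The ligand gene Ereg, by contrast, read 12.16, 11.32 and 12.01 in Sox2cKO and 12.01, 11.07 and 12.11 in CTRL, with both arrays numbered 2 below the rest. Both genes were named after their values were seen.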
